A study of Caenorhabditis elegans with 2 samples.

Results

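The 5 genes described here, mes-2, mes-3, mes-6, mes-4 and mrg-1, encode the worm Polycomb repressive complex and 2 further chromatin regulators of the germ line. They were taken by name from the 19973 protein-coding genes of the nuclear genome, and were proposed with results of these data known. For each gene, the LIN-35 peak summits were collected near every annotated transcript start, from 500 bp upstream to 200 bp downstream (the promoter window), and in the gene body. All 5 genes bore a reproducible LIN-35 summit in the promoter window, against 19.8% of protein-coding genes. None bore one in the body, where 4.84% of protein-coding genes did, so for 5 genes this count is near the background.

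LIN-35, the worm retinoblastoma-family protein, was mapped by chromatin immunoprecipitation and sequencing in whole L1 larvae of mixed sex. There was 1 group with 2 biological replicates, both of strain YL398, and no other genotype, stage or input library was analysed here. The strain carries the allele unc119(ed3)III and the transgene vrIs55, whose LIN-35 protein carries GFP and FLAG tags and is made from the promoter of the gut esterase gene ges-1 with the LIN-35 3'UTR, beside an unc-119 (+) copy. The target named in the labels is eGFP-lin-35 in their description and lin-35 elsewhere, so the share of fusion and endogenous protein in the precipitate is not known, and signal of the fusion would come from cells in which the ges-1 promoter is active. The lists hold peaks and no expression values, so the tissue was not checked against marker genes. Each peak has a position, a summit and a signal, the enrichment score of the authors' caller. Signals of different lists are on different scales, so lists are compared here by rank, where rank 1 is the peak with the highest signal. The reproducible list, thresholded by the irreproducible discovery rate, held 6712 peaks with signals from 45.9 to 4903. The relaxed lists, which include background, held 30000 peaks for replicate 1 and 26341 for replicate 2. The read depth is unknown, so no interval can be given for a single peak.

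The mes genes take their name from maternal-effect sterility: offspring of mutant mothers lack a working germ line. MES-2, MES-3 and MES-6 form a complex that lays down the repressive histone mark H3K27 methylation, and MES-4 lays down H3K36 methylation in germline-expressed genes. MRG-1 is a chromodomain protein of the MRG15 family, whose members in other species read H3K36 methylation. LIN-35 belongs to the synMuv B genes, and loss of synMuv B genes lets somatic cells express germline genes. In genetic studies MES-4 and MRG-1 were needed for that misexpression, so they act against LIN-35 in this setting.

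The stretches under the summits are shown for 4 of the genes because the E2F-type and CHR-type words discussed below lie in them. E2F-type and CHR-type words are the recognition elements of the DREAM complex, through which LIN-35 is brought to DNA. Each stretch runs 5′ to 3′ on the strand of its gene in the ce11 build and covers 75 bp either side of the reproducible summit, except that of mes-6, which stops at the base before the annotated start. Capitals mark every match, on either strand, to the E2F-type words TTCCCGC or TTGGCGC or TTCGCGC or TTGCCGC, the CHR-type words TTTGAA and TTCGAA, and the GATA word TGATAA. The mes-2 stretch lies at chrII:14383776-14383926 on the plus strand, that of mes-6 at chrIV:8511172-8511283 on the plus strand, that of mes-4 at chrV:13437589-13437739 on the minus strand and that of mrg-1 at chrIII:12874826-12874976 on the minus strand. None of the 4 stretches overlapped an annotated exon.
mes-2: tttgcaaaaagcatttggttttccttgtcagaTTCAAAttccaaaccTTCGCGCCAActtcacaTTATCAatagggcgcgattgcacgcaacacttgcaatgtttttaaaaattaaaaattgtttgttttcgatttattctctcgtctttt
mes-6: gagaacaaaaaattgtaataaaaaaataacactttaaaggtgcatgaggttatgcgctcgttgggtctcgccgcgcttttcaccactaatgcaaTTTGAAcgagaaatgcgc
mes-4: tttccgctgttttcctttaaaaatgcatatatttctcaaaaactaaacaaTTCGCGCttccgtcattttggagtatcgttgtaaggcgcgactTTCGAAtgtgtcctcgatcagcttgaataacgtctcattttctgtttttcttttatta
mrg-1: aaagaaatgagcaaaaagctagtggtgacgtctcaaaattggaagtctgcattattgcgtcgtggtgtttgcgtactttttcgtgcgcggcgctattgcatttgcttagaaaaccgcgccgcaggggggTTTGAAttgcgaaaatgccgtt

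Positions of the words are given in bp from the summit along the gene strand, negative when upstream. The mes-2 stretch held an E2F-type word, TTCGCGC, at -28 to -22, and overlapping it a second one, TTGGCGC, on the opposite strand. A CHR-type word lay on the opposite strand at -43 to -38, and a GATA word on the opposite strand at -11 to -6. The mes-4 stretch held the same E2F-type word, TTCGCGC, on the gene strand at -25 to -19, and the CHR-type word TTCGAA, which reads the same on both strands, at 18 to 23. In mes-6 and mrg-1 the match was a CHR-type word alone, at 19 to 24 and 54 to 59. For mes-6 the words were also looked for past the start, and no further match was found. The stretch at mes-3 held none of these words.

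E2F-type words were thus present at 2 of 5 summits, mes-2 and mes-4, against 15.1% of the 3394 reproducible summits in promoter windows and 4.54% of all 19973 promoters, taken as the 151 bp before the outermost start. CHR-type words were present at 4 of 5 summits, against 39.0% of the promoter summits and 45.8% of all promoters, so they were no more frequent at LIN-35 summits than at promoters at large. Both kinds together occurred at mes-2 and mes-4, against 8.57% of the promoter summits and 2.10% of all promoters. The GATA word, of interest because the gut is specified by GATA factors, occurred at mes-2 alone, against 19.4% and 18.0%. A shorter core of the E2F-type word, GGCGC or CGCGC, was looked for after the sequences had been seen. It occurred at mes-2, mes-6, mes-4 and mrg-1, with the centre of the nearest match 1, 2, 11 and 11 bp from the summit, and not at mes-3. The same core was found at 44.3% of the promoter summits and 11.4% of all promoters. A match is a description of the letters, and a summit without one may still be bound.

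A reproducible summit lay in the promoter window of 5 of the 5 genes, where 19.8% of all protein-coding genes bore one. In the full replicate lists, too, 5 of 5 genes had a promoter summit, against 38.2% of protein-coding genes in replicate 1 and 35.6% in replicate 2. When each replicate list was reduced to its 6712 strongest peaks, as many as the reproducible list holds, 5 of 5 genes again had one, against 19.8% for replicate 1 and 17.8% for replicate 2. Replicate 1 and the reproducible list each gave 3959 genes, of which 3872 were the same. The reproducible list derives from the same libraries, so the replicate counts are not independent of it and add no separate support. All 3 calls together were met by the 5 genes and by 14.5% of protein-coding genes. The genes were proposed with results of these data known, so the counts are given beside the background without a test.

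The mes-2 gene encodes the catalytic subunit of the complex, the worm counterpart of fly Enhancer of zeste, and had the strongest peak of the 5. It lies on the plus strand of chromosome II at 14383973 to 14388454, and its peak, 14383662 to 14384007, had its summit 122 bp upstream of the start. The signal was 1986 in the reproducible list, 1877 in replicate 1 and 114 in replicate 2. These signals ranked 54 of 6712, 51 of 30000 and 87 of 26341. Among the 3959 genes with a reproducible promoter summit, 63 (1.59%) had a stronger one. The summits of the replicates were 16 bp apart. The upstream neighbour, sdz-26, ended 593 bp before mes-2 on the same strand and had no reproducible promoter summit, and neither had F26H11.8, which began 58 bp after mes-2 on the same strand. The peak thus fell in the promoter window of mes-2 alone.

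The mes-6 gene encodes the WD-repeat subunit, the counterpart of fly Extra sex combs. It lies on the plus strand of chromosome IV at 8511284 to 8513469, and the summit of its peak, 8511106 to 8511381, was the closest to a start, 37 bp upstream. The signal was 457 in the reproducible list, 439 in replicate 1 and 19.1 in replicate 2, at ranks 628, 607 and 1625. The summits of the replicates were 8 bp apart. A second reproducible summit lay 575 bp farther upstream with a signal of 46.4, rank 6660 of 6712. It stood in the promoter window of the divergent neighbour tag-77, 124 bp upstream of its start, and not in that of mes-6. In the replicate 2 list no summit lay at that place, the nearest being at -916 bp from the mes-6 start with rank 18884. The next gene downstream on the same strand, C09G4.4, overlaps the end of mes-6 and had no reproducible promoter summit.

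The mes-3 gene encodes the third subunit and had the weakest peak of the 5. It lies on the plus strand of chromosome I at 4996835 to 5003202, with 2 annotated starts, and its peak ran from 4996554 to 4996897 with the summit 109 bp upstream of the nearer start. The signal was 54.2 in the reproducible list, 44.5 in replicate 1 and 9.61 in replicate 2. The ranks were 5823 of 6712, 6229 of 30000 and 3982 of 26341, so both replicates placed it well behind the other 4 genes. Of the bound genes, 91.6% had a stronger promoter summit. The summits of the replicates were 42 bp apart, the widest gap of the 5. Among the 3356 strongest reproducible peaks mes-3 had none. Its neighbours dyf-1 and dom-3 had no reproducible promoter summit.

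The mes-4 gene encodes a SET-domain histone methyltransferase of the NSD family. It lies on the minus strand of chromosome V at 13433050 to 13437545, and its peak, 13437551 to 13437780, had its summit 119 bp upstream of the start. The signal was 321 in the reproducible list, 299 in replicate 1 and 19.4 in replicate 2, at ranks 907, 883 and 1580. The summits of the replicates were 14 bp apart. This was the most isolated of the 5 peaks: the nearest other reproducible summit was 20392 bp away, against 575 to 6349 bp for the other 4 genes. The neighbours, the chemoreceptor-family gene srd-17 and the collagen gene col-162, which lies 4415 bp upstream, had no reproducible promoter summit.

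The mrg-1 gene lies on the minus strand of chromosome III at 12871029 to 12874656, and its peak, 12874763 to 12875022, had its summit 245 bp upstream of the nearest start. The signal was 529 in the reproducible list, 482 in replicate 1 and 45.9 in replicate 2, at ranks 544, 550 and 452. The summits of the replicates were 6 bp apart, the narrowest gap of the 5. The same summit lay 130 bp upstream of spcs-2, which encodes a subunit of the signal peptidase and is transcribed in the opposite direction, with 374 bp between both genes. The list cannot tell which of both promoters the protein occupied. When each summit was given only to the nearest start, spcs-2 kept this summit and mrg-1 had none. Downstream, Y37D8A.6 had its own reproducible promoter summit with a signal of 106.

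**Figure D1:**
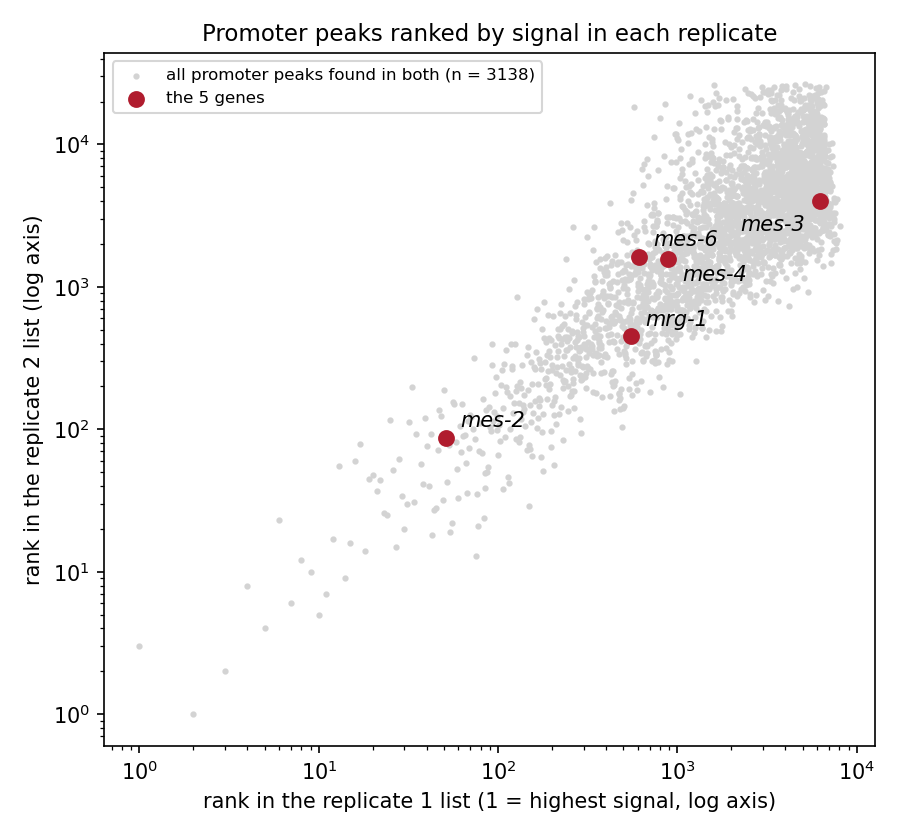
Rank of each reproducible promoter peak in the replicate 1 list (horizontal, log axis) and the replicate 2 list (vertical, log axis), where 1 is the highest signal. Gray points are the 3138 promoter peaks that overlap a peak of both lists by at least 1 bp. The lists include background, so a gray point need not be a strong peak in both. Red points are the 5 genes, with mes-2 at 51 and 87 and mes-3 at 6229 and 3982.

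By rank, mes-2 came first, mrg-1 second and mes-3 last of the 5 genes in each replicate. The order of mes-6 and mes-4 was not stable: mes-6 ranked ahead in replicate 1 (607 against 883) and mes-4 in replicate 2 (1580 against 1625). Ranks of mrg-1 and mes-6 were close in replicate 1 (550 and 607) and apart in replicate 2 (452 and 1625). As a share of each list, mes-2 stood in the top 0.170% of replicate 1 and the top 0.330% of replicate 2, and mes-3 in the top 20.8% and 15.1%. The lists differ in length and include background, so these shares depend on where each list ends and are not like for like. With 2 libraries, the spread between replicates is known only from these pairs of values.

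**Figure D2:**
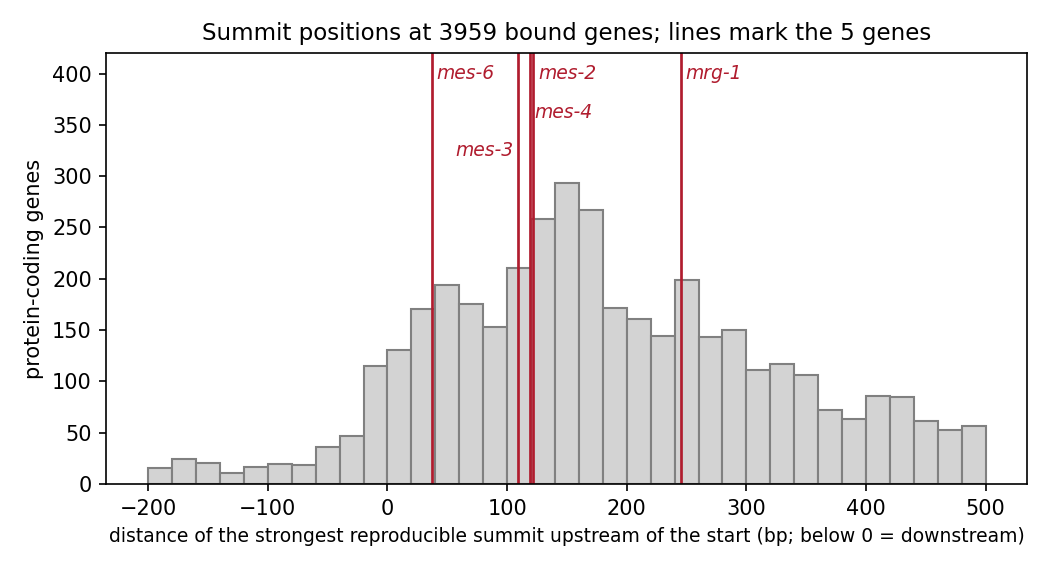
Distance in bp of the strongest reproducible summit upstream of the nearest annotated start for the 3959 genes that bore one (histogram, bins of 20 bp), with red lines for the 5 genes. The lines stand at 37, 109, 119, 122 and 245 bp, all upstream of the start.

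The summits of mes-2, mes-4 and mes-3 lay 122, 119 and 109 bp upstream of their starts, mes-6 was nearer and mrg-1 farther. Over all 3959 bound genes the median distance was 163 bp upstream, with quartiles of 79 and 274 bp, so mes-6 lay nearer to its start than the lower quartile and the other 4 genes lay between the quartiles. Many worm transcripts are trans-spliced, and an annotated start then need not be where transcription begins. The gaps between replicate summits, 6 to 42 bp, compare with a median of 22 bp and quartiles of 9 and 47 bp over the 3138 promoter peaks found in both replicates. The peak of mes-2, mes-3, mes-6 and mes-4 each served 1 protein-coding gene, as did 78.8% of the 3394 reproducible promoter peaks. The GC content within 75 bp of the summit was 34.4% at mes-2, 35.8% at mes-4, 39.1% at mes-6, 39.7% at mes-3 and 47.0% at mrg-1. The median over the promoter summits was 41.1%, with quartiles of 37.1% and 46.4%, so mes-2 and mes-4, the summits with E2F-type words, lay below the lower quartile and mrg-1 above the upper.

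**Figure D3:**
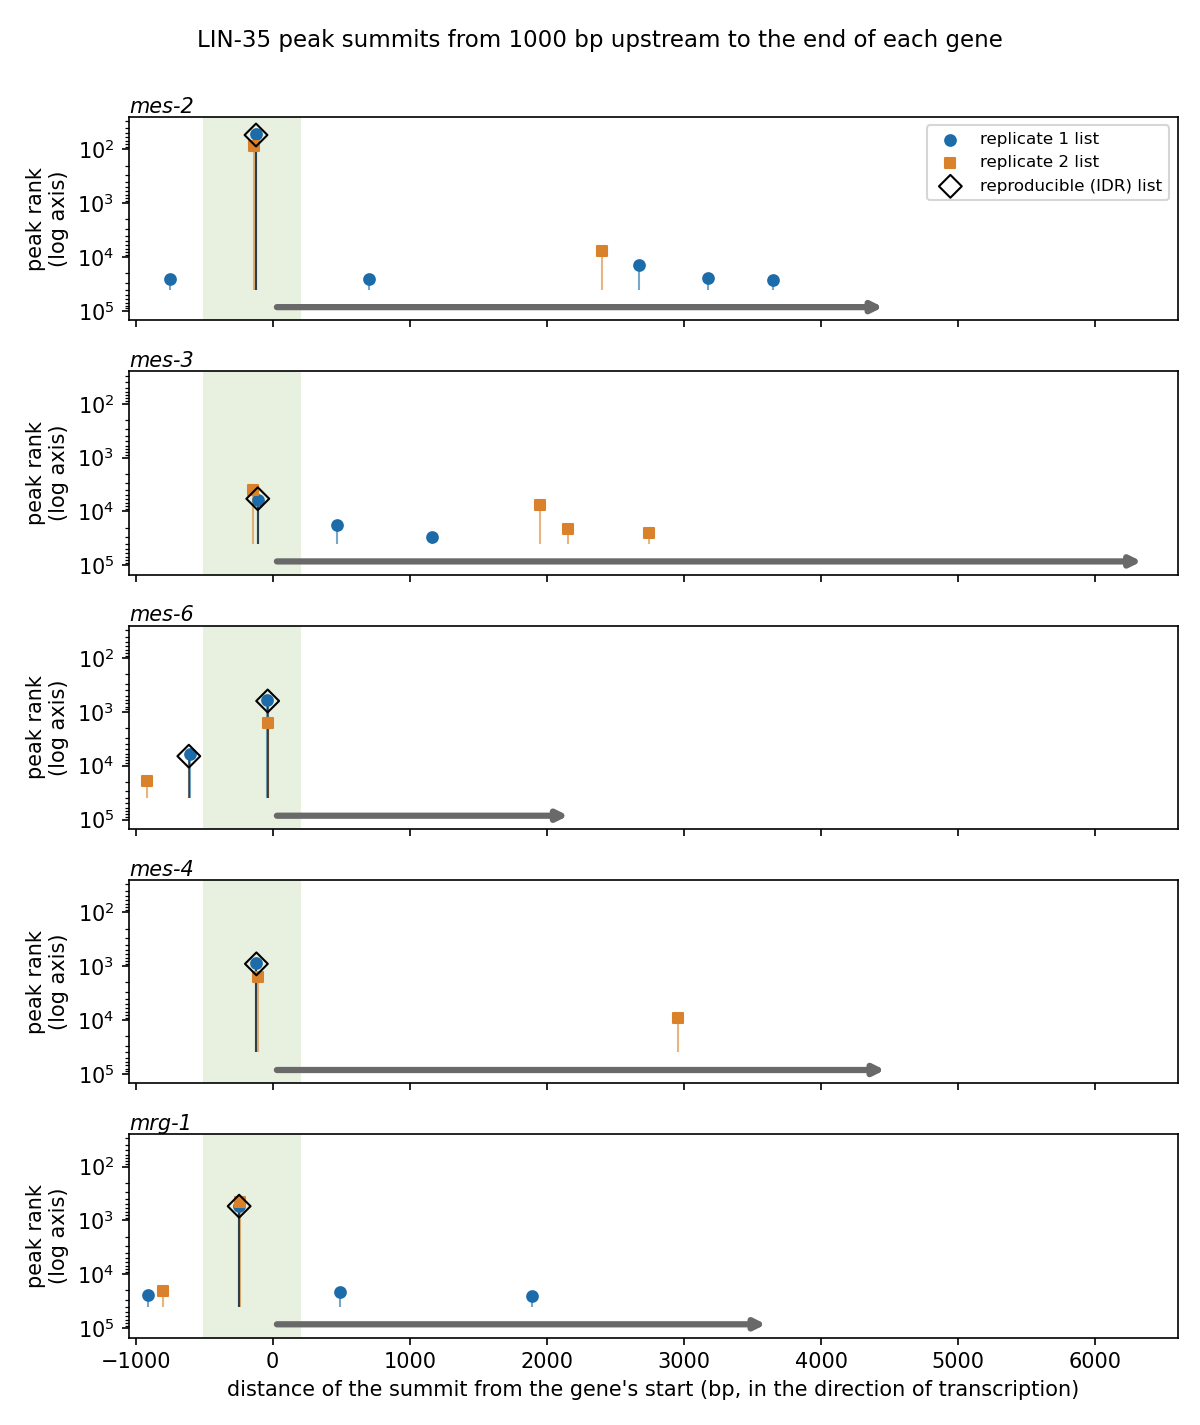
Summits of the reproducible list (open diamonds), the replicate 1 list (blue circles) and the replicate 2 list (orange squares) from 1000 bp upstream of the start to the end of each gene, plotted by distance from the start in bp (horizontal) and rank within the list (vertical, log axis, strongest at the top). Gray arrows are the gene bodies and the shaded band is the promoter window; in all 5 genes the highest-ranking summit of every list lies in the band.

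None of the 5 genes held a reproducible summit in its body outside promoter windows, where 4.84% of protein-coding genes did, a share at which 0 of 5 is no result about these genes. The pooled relaxed list, which includes background, placed summits in the bodies of 3 of the 5 genes, mes-2, mes-3 and mrg-1, against 32.2% of protein-coding genes. They were weak. In mes-2 there were 3 pooled summits, the strongest in an intron 2605 bp past the start with a signal of 18.1 at rank 13331 of 30000. In mes-3 there were 2, an intronic summit 466 bp past the start with a signal of 13.3 and a summit in a coding exon 1959 bp past it with a signal of 8.16. In mrg-1 there were 2, the stronger in an intron 1947 bp past the start with a signal of 10.5. The replicates did not place body summits alike. The mes-4 body held a summit in replicate 2 alone, in a coding exon 2959 bp past the start at rank 9000, and mrg-1 held 2 in replicate 1 and 0 in replicate 2. In mes-2, replicate 1 had 4 body summits and replicate 2 had 1, in a coding exon at rank 7664. In mes-3, replicate 1 had 2 and replicate 2 had 3, the strongest 1947 bp past the start at rank 7748. In mes-2 and mes-3, the genes with body summits in both replicates, the nearest pair of summits from different replicates was 267 and 786 bp apart. The mes-6 body held 0 summits in every list.

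**Figure D4:**
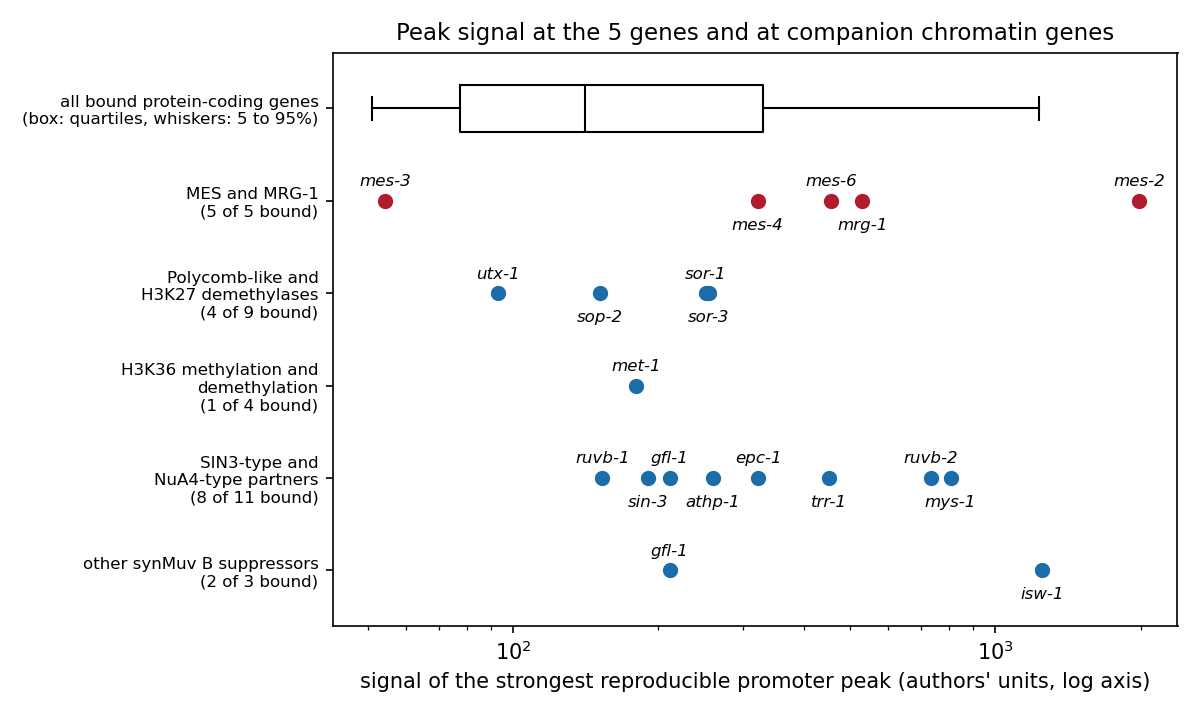
Signal of the strongest reproducible promoter peak (horizontal, authors' units, log axis) for all 3959 bound protein-coding genes (box at the quartiles, line at the median, whiskers at the 5th and 95th percentiles), the 5 genes (red) and the companion genes that bore a peak (blue); gfl-1 is in 2 lists. The mes-2 peak, at 1986, exceeds all companions, and mes-3, at 54.2, lies under the lower quartile of 77.4.

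Genes that act beside the 5 were given by 4 short lists. Of these 26 genes, 14 (53.8%) had a reproducible promoter summit, against 19.8% of protein-coding genes, and the median of their strongest signals was 253, against 457 for the 5 genes and 141 for all bound protein-coding genes. The lists were drawn up with earlier results of these data known and are no independent evidence. Among Polycomb-like genes and genes for demethylases of H3K27, 4 of 9 had one. These were sop-2, sor-1 and sor-3, which keep Hox genes silent outside their domains, with signals of 151, 251 and 254, and the demethylase gene utx-1 with 93.0. The ring-finger genes spat-3 and mig-32 and the demethylase genes jmjd-3.1, jmjd-3.2 and jmjd-3.3 had none in the main window. With 1000 bp upstream spat-3 gained one, for 5 of 9 against 24.1% of protein-coding genes. The nearest start within 2 kb also gave 5 of 9, against 22.6%. With 250 bp either side the count was 3 of 9, against 14.2%, and sor-1 had none. Of the 4 genes bound in the main window, only sor-1 and sor-3 kept a promoter summit with replicate 2 alone. There sop-2 ranked 6873 and utx-1 8333, past the 6712 strongest. With replicate 2 alone 17.8% of protein-coding genes had one, so 2 of 9 is near the background.

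In the list for methylation and demethylation of H3K36, 1 of 4 genes had a promoter summit, the methyltransferase gene met-1 with a signal of 180. At 19.8% of all protein-coding genes, 1 of 4 is near the background. The genes lin-59, jmjd-2 and jhdm-1 had none in the main window. This count depended on the window: lin-59 and jhdm-1 gained a summit with 1000 bp upstream, for 3 of 4 against 24.1% of protein-coding genes, and all 4 genes had one when each summit went to the nearest start within 2 kb, against 22.6%. In the list of partners that MRG15-family proteins have in SIN3-type and NuA4-type complexes, 8 of 11 genes had a promoter summit. The strongest were the acetyltransferase gene mys-1 (signal 807), the helicase-like gene ruvb-2 (734) and trr-1 (451), followed by epc-1 (322), the PHD-finger gene athp-1 (259), the YEATS-domain gene gfl-1 (211), the corepressor gene sin-3 (190) and ruvb-1 (153). The summits of trr-1, epc-1, gfl-1 and ruvb-1 also lay in the promoter window of another gene (C47D12.2, Y111B2A.12, M04B2.4 and tofu-1), and with the nearest start trr-1 had none. The sin-3 peak ranked 1547 in replicate 1 and 8668 in replicate 2, and hda-1, set-26 and ing-3 had none in the main window. With 250 bp either side the count was 6 of 11, against 14.2% of protein-coding genes, and mys-1 and sin-3 had none. With 1000 bp upstream it was 10 of 11, against 24.1%. Of the 3 other chromatin genes whose loss suppresses synMuv B phenotypes, 2 had a promoter summit in the main window, against 19.8% of protein-coding genes. The remodeller gene isw-1 had the strongest signal among all companions (1251, rank 164 of 6712), gfl-1 had that given above and zfp-1 had none. With 1000 bp upstream or with the nearest start zfp-1 gained one, for 3 of 3 against 24.1% and 22.6%. With 250 bp either side it was 2 of 3, against 14.2%.

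Peak ranks were compared over 3663 bound genes whose peak overlapped a peak of both replicate lists. Among them, the genes with the most similar ranks in both replicates were looked up by the distance between rank percentages over the 2 libraries. For mes-2 they were spas-1, the nuclear pore gene npp-19 and the transporter gene wht-3, with distances of 0.030 to 0.036 percentage points. For mes-6 they were the SWI/SNF gene swsn-4, F52C12.2 and F36D3.1 (0.021 to 0.066). For mes-4 they were cept-2, C18D4.6 and the Aurora kinase gene air-1 (0.082 to 0.16). For mrg-1 they were imb-1 and mfsd-13.1, with identical ranks and signal (558) as for 1 shared peak, and Y54F10AM.15 (0.070 to 0.072). For mes-3 they were F22H10.2, fut-2 and Y38F2AR.12 (0.38 to 0.65). This likeness is over 2 libraries and describes peak rank only, and the percentages depend on the length of each list.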

How the data were processed

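LIN-35 peaks were mapped in 2 biological replicates of whole L1 larvae, which form 1 group by their labels. Per the notes deposited with the files, each ce11 list was called against a control alignment, per replicate and on both replicates pooled, and the IDR list derives from these; the sources used here name neither aligner, caller nor versions, and no IDR cutoff. The deposited signal per peak is the authors' enrichment score, used to describe and rank peaks within a list. The deposited −log10 q-value per peak was not used to filter. The ce10 lists were not used. The 6700 distinct positions of the IDR list are all among the 6712 strongest pooled peaks. The number of columns of unknown origin was 0.

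Gene models came from Ensembl release 115 (WBcel235, the assembly of ce11) and sequence from the RefSeq genome of that assembly; all peaks lie within its chromosome lengths. A peak of a replicate matches an IDR peak if they overlap by at least 1 bp; of several, the strongest was taken. Words were searched on both strands. There was no test, because the comparison has 1 group and the members, companion lists and words were chosen with earlier results of these data known.

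Named genes are the members, their next protein-coding neighbours, genes under the same summit, the 3 genes nearest by replicate rank and the companion genes with a promoter summit; companion genes without one are named after their values were seen. Tested on simulated data, 100% of 2000 planted summits were assigned to their gene, and 100% of 700 planted words were found. Of summits planted 1 bp past the upstream edge, 0% were assigned. That check used the window of the outermost start alone and did not cover the downstream edge. Alternatives were other windows, the nearest start within 2 kb, the outermost start, the 3356 strongest peaks, the pooled relaxed list, each replicate alone, the 4695 IDR peaks in the strongest lists of both replicates, and 150 bp either side of the summit for words. Computation used Python 3.11.15, numpy 2.4.6 and pandas 2.3.3.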

Additional observations from a re-analysis of the deposited data

How the results depend on the processing

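The count of genes with a promoter summit was 5 of 5 under 7 of the 9 alternatives and 4 of 5 under the others: mes-3 had none among the 3356 strongest peaks (12.7% of protein-coding genes had one) and mrg-1 had none with the nearest start within 2 kb (22.6%), which makes their value 0. With each replicate left out in turn, which means the 6712 strongest peaks of the other replicate, the count was 5. These are the counts of the single replicates given above, and no reproducible list was called anew. With 1000 bp upstream the background was 24.1%, and with 250 bp either side, which just held the mrg-1 summit, 14.2%. The count of genes with a body summit rose from 0 to 3 in the pooled relaxed list (32.2% of protein-coding genes). It was 0 among the 6712 strongest peaks of each replicate (4.88% of protein-coding genes for replicate 1 and 6.12% for replicate 2). The full replicate lists gave 3 each, but the share of all protein-coding genes was not computed there, so nothing is read from that count. The H3K36 list went from 1 of 4 to 3 with 1000 bp upstream and 4 with the nearest start, and ran from 1 to 2 with each replicate left out. The Polycomb-like list was 4 of 9 with replicate 2 left out and 2 of 9 with replicate 1 left out. The background for both lists was 19.8% of protein-coding genes with replicate 2 left out and 17.8% with replicate 1 left out. At that share, 2 of 9 is near the background. The list of SIN3-type and NuA4-type partners, 8 of 11, ran from 6 with 250 bp either side to 10 with 1000 bp upstream. Within 150 bp the word counts at the 5 summits were the same, while the share of promoter summits with a CHR-type word rose to 65.0%, with the GATA word to 33.1% and with an E2F-type word to 18.0%. The cause of these changes was not tested beyond what each setting itself alters. Read depth, unknown here, sets what a missing peak can mean.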
